A study of Mus musculus with 6 samples.

Results

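The phagocyte NADPH oxidase and the inducible nitric oxide synthase were followed through 7 genes of the deposited table, taken by gene name from the 54429 gene symbols listed there. They are Cybb and Cyba, the membrane subunits of the oxidase, Ncf1 and Ncf4, 2 of its cytosolic subunits, the small GTPases Rac1 and Rac2, and Nos2, the nitric oxide synthase. The rule that picks them is a list of names and has no threshold on a measured value, although earlier results of these data were known when it was written. The cells are RAW264.7, a mouse macrophage line. Gel/S, the control, is RAW264.7 kept static with GelMA, a gelatin modified with methacryloyl groups, and C/D is the same line with GelMA/PEDOT:PSS+PLLA/PDA, a composite with a conducting polymer, under dynamic conditions, which meant ultrasound at 48 kHz for 5 min. Culture lasted 3 d in both, with 3 RNA-seq libraries per group. The groups differ in material and in ultrasound at once, and the effects of these cannot be told apart. The labels do not say whether replicates are separate cultures, so p-values measure the spread between these libraries, which may be technical.

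In the resting phagocyte the oxidase is held in parts. Cybb and Cyba encode a heterodimer in the membrane that carries electrons from NADPH across it to oxygen and so makes superoxide. On activation the organiser protein made by Ncf1 is phosphorylated and moves to the membrane with further cytosolic subunits, among them the regulatory subunit made by Ncf4, and a Rac protein loaded with GTP completes the enzyme. Nos2 encodes an enzyme that makes nitric oxide from arginine and needs tetrahydrobiopterin. In macrophages it is known as a gene switched on by interferon gamma and bacterial products.

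Libraries held 12818831 to 16525699 counts. Library Gel/S 1 stood apart, with a first principal component score of −34.6 against −11.3 and −17.7 in the other Gel/S libraries and 18.2 to 25.6 in C/D. The results for the 7 genes are therefore also given without it. The share of counts from the mitochondrial genome was 5.59%, 9.02% and 7.41% in Gel/S 1 to 3 and 9.17%, 10.4% and 9.99% in C/D 1 to 3, higher in every C/D library. With the mitochondrial genes left out of the counts, the log2 fold changes of Cybb (−0.70) and Rac1 (−0.43) were the same to that precision. The scaling of libraries rests on most genes, so leaving out a few could hardly move these values. Whether the mitochondrial share matters for them was not tested. The macrophage label was checked on 9 marker genes, of which 8 had a mean level of at least 1 FPKM (counts per kilobase of gene and per scaled library total), with Mertk near 0. Their summed level was 13480 to 13860 FPKM in Gel/S and 11660 to 11830 FPKM in C/D. Most of that sum was Lyz2, with means of 10200 FPKM in Gel/S and 8024 FPKM in C/D, not called (edgeR adjusted p = 0.0649). Not all markers were lower in C/D, as Tyrobp had means of 1568 FPKM in Gel/S and 1980 FPKM in C/D, not called. Of the 8, 1 fell (Csf1r, mean 550 to 382 FPKM), against 13.9% of all tested genes. Of 8 neutrophil markers, the other cell type rich in this oxidase, 6 stayed under 1 FPKM in every library and Mpo and S100a9 had no count, while Csf3r fell from 13.4 to 10.1 FPKM. The fibroblast, endothelial, epithelial, T cell and osteoblast lists stayed under 1 FPKM gene by gene, B cell markers summed to at most 1.55 FPKM, and osteoclast markers summed to 47.3 to 49.3 FPKM in Gel/S and 36.7 to 42.1 FPKM in C/D, mostly from Dcstamp, which fell, and Acp5, which rose.

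Of the 7 genes, 2 fell in C/D, Cybb and Rac1, and none rose. The other 5 did not pass an adjusted p of 0.05 (edgeR quasi-likelihood test, Benjamini-Hochberg over all 11708 genes with a mean of at least 1 FPKM). Among all tested genes 13.9% fell, 13.1% rose and 27.0% were called in either direction, so 2 called of 7 is close to the background share and says nothing particular about the set. All 7 passed the filter on low values. The FPKM of the groups did not overlap for 3 of the 7 (Cybb, Ncf1 and Rac1, all lower in C/D), against 46.2% of tested genes in either direction and 27.1% with C/D lower. The median log2 fold change of the 7 was −0.08, against 0.01 for all tested genes. Because the RNA is bulk, fewer cells of a kind and less RNA per cell cannot be told apart.

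**Figure D1:**
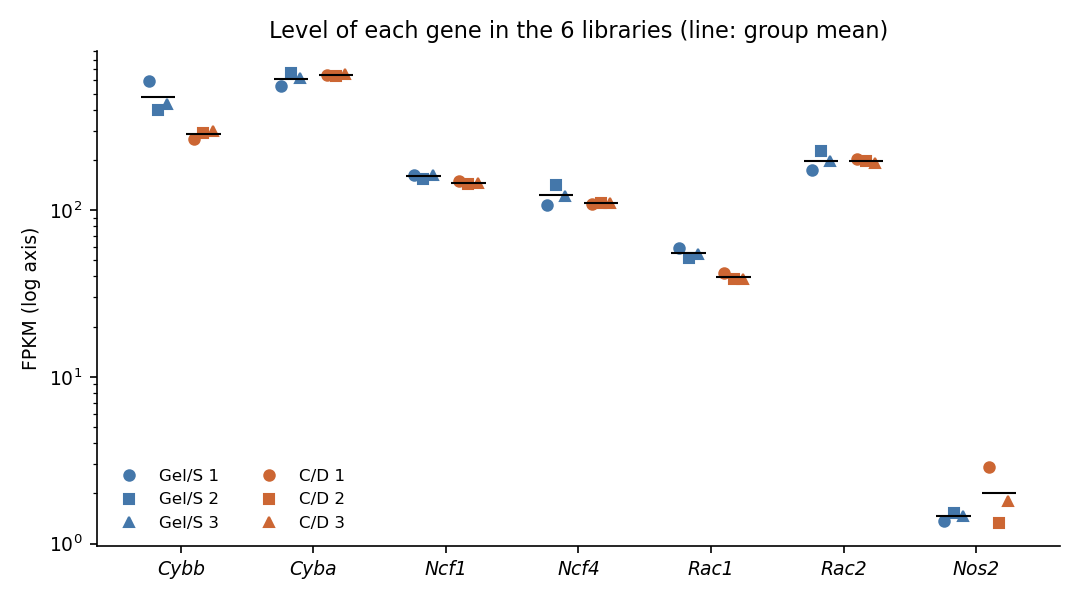
Level of each oxidase gene and of Nos2 in FPKM on a log axis, with 1 symbol per library (blue Gel/S, orange C/D; circle, square and triangle for replicates 1, 2 and 3) and a line at the group mean. Cybb, Ncf1 and Rac1 show no overlap between groups with C/D lower, though Ncf1 was not called. Nos2 lies at 1.33 to 2.89 FPKM, far below the oxidase genes.

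Cybb encodes gp91phox, the catalytic subunit that holds the flavin and the haems (chromosome X, 9435252 to 9487771, minus strand, GRCm38, 13 exons in its principal transcript). Its level was 594, 398 and 436 FPKM in Gel/S 1 to 3 and 268, 289 and 297 FPKM in C/D 1 to 3. Every C/D library was below every Gel/S library, and Gel/S 1 was the highest of all. The mean went from 476 ± 104 to 285 ± 14.7 FPKM (SD, n = 3 each), and the log2 fold change was −0.70 (95% interval −0.997 to −0.40, SE 0.138, edgeR adjusted p = 0.00428), a level 0.617 times that of Gel/S. Without Gel/S 1 the log2 fold change was −0.52 with an edgeR adjusted p of 0.000364. Cybb took 0.275% of all counts in Gel/S and 0.168% in C/D, and its rank by mean FPKM among tested genes went from 120 to 204. No other annotated gene overlaps it.

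The stretch upstream of Cybb is printed because Cybb had the largest fall of the 7 genes, beside those of Cyba and Ncf1, which were not called. These are the 250 bases before the RefSeq start of each gene (RefSeq, GRCm38.p6), all on the minus strand and written 5′ to 3′, and RefSeq entries were matched for 3 of the 7 genes. Capitals mark matches, on either strand, to the interferon response element core (GAAA, any 2 bases, GAAA), the AP-1 site TGANTCA and the GC box GGGCGG. The PU.1 core GAGGAA, the TATA box TATAAA and the NF-kB consensus were also searched, and those letters are not in these windows.
Cybb, chrX:9469325-9469574: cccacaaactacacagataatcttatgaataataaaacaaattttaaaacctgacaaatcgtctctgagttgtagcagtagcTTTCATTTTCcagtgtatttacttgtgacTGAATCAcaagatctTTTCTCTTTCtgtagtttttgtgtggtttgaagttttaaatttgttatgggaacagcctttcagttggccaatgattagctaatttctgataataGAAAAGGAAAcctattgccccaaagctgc
Ncf1, chr5:134229626-134229875: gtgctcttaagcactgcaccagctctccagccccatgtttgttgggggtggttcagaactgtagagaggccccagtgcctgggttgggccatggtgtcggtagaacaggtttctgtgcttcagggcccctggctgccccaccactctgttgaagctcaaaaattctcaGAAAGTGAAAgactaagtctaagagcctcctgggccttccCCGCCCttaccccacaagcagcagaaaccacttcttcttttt
Cyba, chr8:122432941-122433190: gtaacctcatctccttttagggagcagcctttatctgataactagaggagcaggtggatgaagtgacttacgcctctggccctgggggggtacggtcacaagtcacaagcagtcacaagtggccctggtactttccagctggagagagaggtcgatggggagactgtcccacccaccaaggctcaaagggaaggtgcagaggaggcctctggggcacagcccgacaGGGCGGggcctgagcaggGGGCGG

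Cybb held the interferon response element core at 3 places, with first bases at −168, −124 and −29 from the start, and an AP-1 site at −139. None of these matches overlaps another. Ncf1 held 1 interferon core at −82 and 1 GC box at −42, and Cyba held 2 GC boxes at −24 and −6. Of 32851 RefSeq windows of the same length, 2.98% hold at least 1 interferon core, 6.75% an AP-1 site and 32.7% a GC box, while 23.3% hold the PU.1 core, 12.4% the TATA box and 7.25% the NF-kB consensus. The Cybb window lies at the start of its principal GENCODE transcript, and the listed gene span reaches further upstream because of another transcript. A match describes letters and does not show binding. Rac1, Rac2, Ncf4 and Nos2 had no sequence printed.

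Cyba encodes p22phox, the partner that keeps the catalytic subunit stable in the membrane (chromosome 8, 122424776 to 122432930, minus strand). It was the most abundant of these mRNAs per length, at 556, 662 and 619 FPKM in Gel/S and 651, 639 and 659 FPKM in C/D. The groups overlapped, and C/D libraries lay close together. Means were 613 ± 53.5 and 649 ± 10.3 FPKM, and the log2 fold change was 0.13 with a 95% interval of −0.09 to 0.34 (edgeR adjusted p = 0.358, SE 0.0987). Without Gel/S 1 the log2 fold change of Cyba was 0.05 (edgeR adjusted p = 0.654). Gm20388 is annotated across Cyba on the other strand and had no count in any library. Cyba is a short gene with 1039 bases listed, and the 2927 shortest tested genes (up to 2018 bases) had a median log2 fold change of 0.21, against −0.02, −0.06 and −0.04 in the 3 longer classes of that size. Corrected in each library for gene length, a setting chosen after seeing the data, Cyba was at −0.06 (limma adjusted p = 0.556), Cybb at −0.63 (limma adjusted p = 0.00303) and Rac1 at −0.38 (limma adjusted p = 0.00280).

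Since both chains are needed for the membrane dimer, their FPKM were set against each other within libraries. The Cyba to Cybb ratio was 0.937, 1.67 and 1.42 in Gel/S and 2.43, 2.21 and 2.22 in C/D. All C/D ratios were above all Gel/S ratios, and Gel/S 1 was the only library with more Cybb than Cyba per length. The mean ratio went from 1.34 ± 0.371 to 2.29 ± 0.122, a difference of 0.81 on the log2 scale (exact permutation test, 2-sided, p = 0.1, which is the lowest value 3 against 3 libraries can give). Without Gel/S 1 the difference was 0.57 (exact permutation p = 0.2, the smallest for 2 against 3 here).

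The cytosolic subunits were measured at lower levels and were not called. Ncf1, the organiser p47phox (chromosome 5, 134220053 to 134229625, minus strand), stood at 163, 154 and 162 FPKM in Gel/S and 150, 143 and 146 FPKM in C/D. By FPKM every C/D library was below every Gel/S library, but after TMM scaling of the counts the groups overlapped. The log2 fold change of Ncf1 was −0.08 (SE 0.0866, 95% interval −0.27 to 0.11, edgeR adjusted p = 0.505), and without Gel/S 1 it was −0.08 too. Its 3′ part overlaps Gtf2ird2 on the other strand, which was listed at 5.09 to 5.97 FPKM.

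Ncf4, the regulatory subunit p40phox that binds a phosphoinositide of phagosomes (chromosome 15, 78244801 to 78262580, plus strand), was at 107, 142 and 122 FPKM in Gel/S and 109, 111 and 111 FPKM in C/D. The groups overlapped, with Gel/S 1 below all C/D libraries and the other Gel/S libraries above them. The log2 fold change of Ncf4 was −0.13 (SE 0.109, 95% interval −0.36 to 0.11, edgeR adjusted p = 0.410), −0.23 without Gel/S 1 (edgeR adjusted p = 0.0579) and −0.01 without Gel/S 2. The intervals of Ncf1 and Ncf4 both exclude the fall estimated for Cybb.

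**Figure D2:**
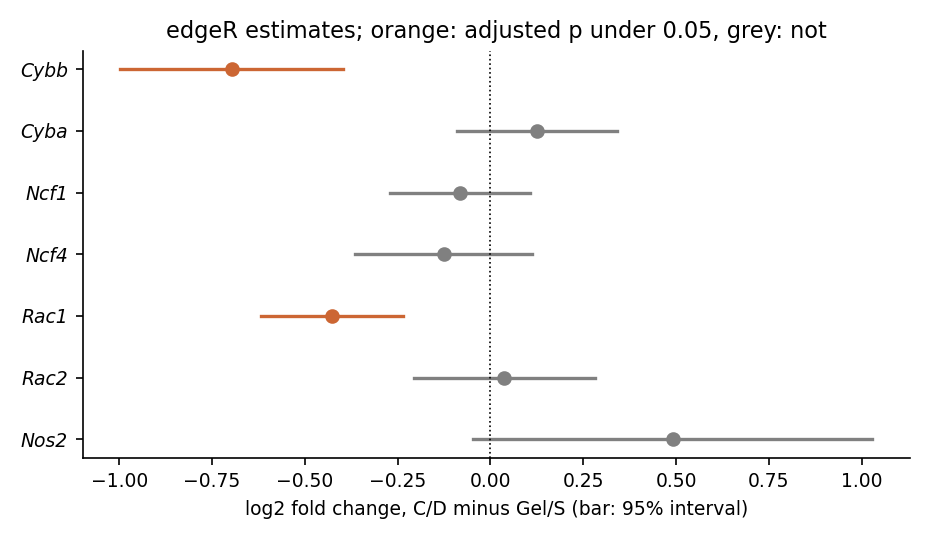
Log2 fold change of each gene in C/D against Gel/S from edgeR (points) with the 95% interval (bars); orange marks an adjusted p under 0.05. Cybb at −0.70 and Rac1 at −0.43 lie wholly below 0, and the interval of Nos2 is the widest, from −0.05 to 1.03.

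Rac1 is the broadly expressed GTPase of the pair that can complete the oxidase (chromosome 5, 143503634 to 143528036, minus strand). Its level was 59.2, 51.3 and 54.8 FPKM in Gel/S and 41.8, 38.6 and 38.9 FPKM in C/D, with no overlap and little spread within groups. The mean went from 55.1 ± 3.96 to 39.8 ± 1.77 FPKM, and the log2 fold change was −0.43 (95% interval −0.62 to −0.24, SE 0.0875, edgeR adjusted p = 0.00504), or −0.38 without Gel/S 1 (edgeR adjusted p = 0.00242). Gm42502 lies within Rac1 on the other strand and was listed at 0.244 to 0.706 FPKM. The 3′ end of Rac1 also overlaps the 3′ end of Daglb on that strand. Daglb was at 7.66 ± 1.08 FPKM in Gel/S and 5.00 ± 0.0496 FPKM in C/D and fell too (log2 fold change −0.57, edgeR adjusted p = 0.00250). Whether counting used strand is not stated, so reads of the shared end cannot be told apart. Over the whole genes, Daglb had 622 to 1350 counts per library and Rac1 had 2443 to 4253. Reads of the shared end were not counted separately, and their part in the Rac1 values was not tested.

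Rac2 is the form found in blood cells (chromosome 15, 78559167 to 78572783, minus strand). It was at 173, 225 and 196 FPKM in Gel/S and 203, 198 and 191 FPKM in C/D, and the C/D values lay inside the Gel/S range. The log2 fold change of Rac2 was 0.04 (SE 0.111, 95% interval −0.21 to 0.28, edgeR adjusted p = 0.824), and it turned to −0.06 without Gel/S 1. Rac3, another form known from the nervous system, was at 3.34 to 5.30 FPKM and was not called (log2 fold change 0.30, edgeR adjusted p = 0.263). The Rac2 to Rac1 ratio was 2.92, 4.39 and 3.58 in Gel/S and 4.87, 5.13 and 4.92 in C/D. The ratio was higher in every C/D library, with means of 3.63 ± 0.738 and 4.97 ± 0.138, a difference of 0.47 on the log2 scale (2-sided exact permutation p = 0.1, the smallest possible), and 0.33 without Gel/S 1 (exact permutation p = 0.2).

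**Figure D3:**
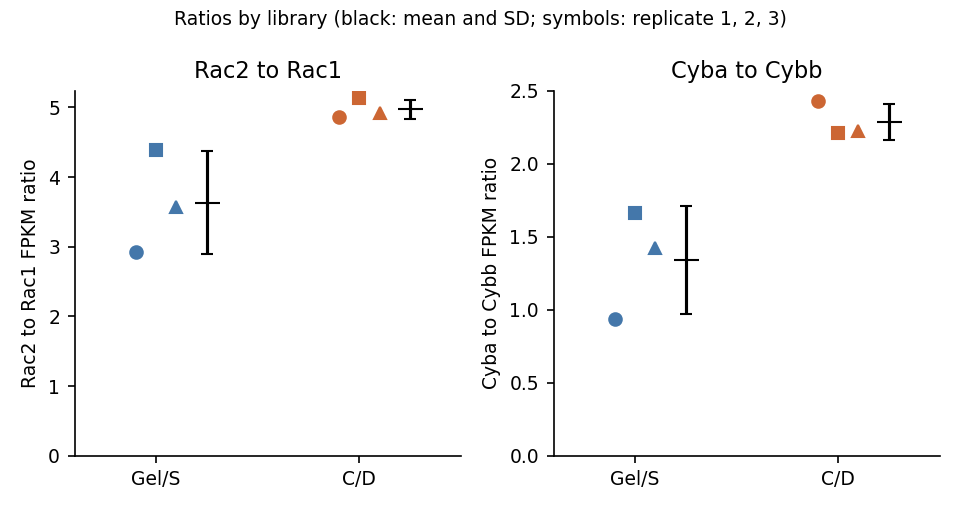
FPKM ratios within each library, Rac2 to Rac1 on the left and Cyba to Cybb on the right, with mean and SD in black; circle, square and triangle are replicates 1, 2 and 3 of a group, which are not paired. In both panels all C/D libraries lie above all Gel/S libraries, 4.87 to 5.13 against 2.92 to 4.39 on the left and 2.21 to 2.43 against 0.937 to 1.67 on the right.

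Per length, the order of mean levels over all libraries was Cyba, Cybb, Rac2, Ncf1, Ncf4, Rac1 and Nos2. Each gene was above the next in 3 of 3 libraries of both groups, except that Cyba was above Cybb in 2 of 3 Gel/S libraries. The mean levels span from 631 FPKM for Cyba to 1.73 FPKM for Nos2.

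Nos2 (chromosome 11, 78920787 to 78960254, plus strand) was close to the floor of what was tested. It had 96, 109 and 101 counts in Gel/S and 166, 94 and 119 counts in C/D, which is 1.36, 1.53 and 1.47 FPKM against 2.89, 1.33 and 1.79 FPKM. C/D 1 was the highest library and C/D 2 the lowest of all 6, so the groups overlapped. Its log2 fold change of 0.49 was not called (SE 0.246, 95% interval −0.05 to 1.03, edgeR adjusted p = 0.154). Without Gel/S 1 it was 0.43 (edgeR adjusted p = 0.221). The estimate depended on single C/D libraries: it was 0.14 without C/D 1 (edgeR adjusted p = 0.654) and 0.72 without C/D 2, where it just passed (edgeR adjusted p = 0.0500). Nos2 ranked 10728 of 11708 tested genes by mean FPKM in Gel/S and 10195 in C/D. The constitutive synthases Nos1 and Nos3 were under 1 FPKM in every library.

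**Figure D4:**
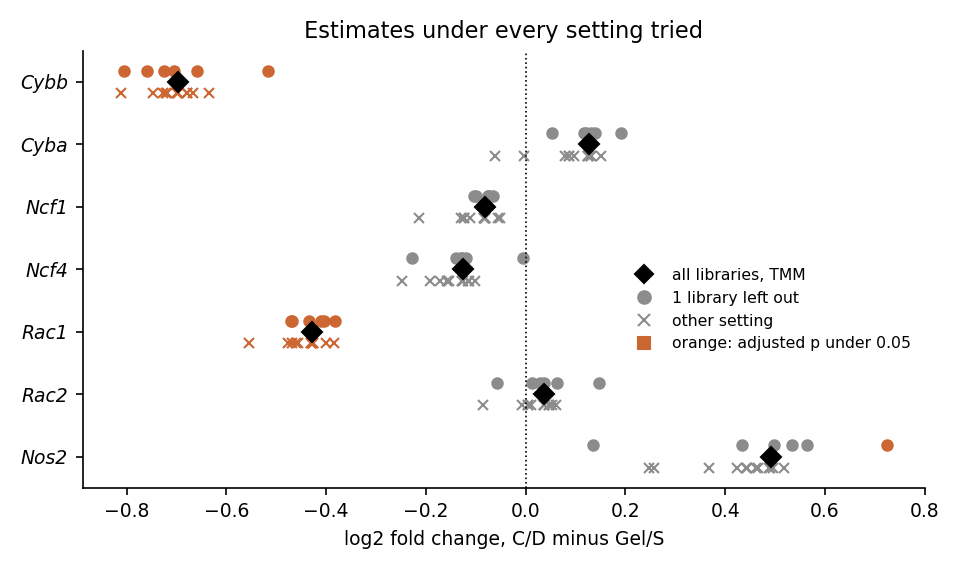
Log2 fold change of each of the 7 genes under every setting tried: all libraries with TMM scaling (black diamond), with 1 library left out (circles) and with another test, scaling or filter (crosses); orange marks an adjusted p under 0.05. Cybb stays between −0.81 and −0.52 and Rac1 between −0.56 and −0.38, all called, while Nos2 runs from 0.14 to 0.72 with 1 call.

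The authors' deposited table gives its own fold changes and p-values, with Gel/S over C/D, so signs are turned here. In the authors' deposited table the log2 value was −0.74 for Cybb (adjusted p = 2.93e-07) and −0.47 for Rac1 (adjusted p = 1.84e-05). For the other 5 the authors' deposited table has adjusted p-values from 0.205 for Nos2 to 0.984 for Rac2, so the same 2 of 7 genes pass there. That table has an adjusted p under 0.05 for 14.9% of its 21850 genes with a p-value.

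Genes that assemble or support the oxidase, from a list of 14, were mostly unmeasured. The list had 5 tested members, of which 1 fell and none rose. Its median was −0.12 on the log2 scale against 0.01 for all tested genes, of which 13.9% fell and 13.1% rose. Clcn3, a chloride-proton exchanger of endosomes, fell from 7.85 ± 1.35 to 5.09 ± 0.717 FPKM (log2 fold change −0.58, edgeR adjusted p = 0.00686). Cybc1, a chaperone that the catalytic subunit needs to reach the membrane, was at 17.2, 15.0 and 16.5 FPKM in Gel/S and 14.0, 12.9 and 13.9 FPKM in C/D, lower in every C/D library but not called (log2 fold change −0.21, edgeR adjusted p = 0.0931). It passed without Gel/S 2 (log2 fold change −0.26, edgeR adjusted p = 0.0418), which made 2 fallen genes of the list. Hvcn1, the proton channel that balances the charge the oxidase moves, was at 3.07 ± 0.460 and 2.73 ± 0.0704 FPKM (log2 fold change −0.12, edgeR adjusted p = 0.543). The other catalytic homologues Nox1, Nox3, Nox4, Duox1 and Duox2 were each at or under 0.201 FPKM, so Cybb was the only one of these NOX family genes measured above 1 FPKM here.

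Among 19 tested kinases and lipid enzymes that act upstream of the oxidase, 7 fell, 1 rose and 11 were not called (median −0.22). Over all tested genes 13.9% fell and 13.1% rose, and the lists were not tested as sets. Pla2g4a, the phospholipase that frees arachidonic acid, fell from 25.9 ± 2.25 to 18.7 ± 1.14 FPKM (log2 fold change −0.43, edgeR adjusted p = 0.00533). Akt1 (−0.42), a kinase of the Ncf1 product, the Src family kinase Lyn (−0.49) and the Rac-activated kinase Pak2 (−0.55) fell as well. Lyn and Pak2 lost their call without C/D 1 (edgeR adjusted p = 0.0515 and 0.0595), and Pak2 was at −0.36 without Gel/S 1. Prkcd, the protein kinase C known for phosphorylating the Ncf1 product, was at 49.5 ± 2.24 and 52.5 ± 0.855 FPKM (log2 fold change 0.13, edgeR adjusted p = 0.260), and Prkca rose from 1.15 to 1.61 FPKM. Leaving out C/D 1 left 3 fallen genes, and leaving out C/D 2 or C/D 3 left 4 each, and none rose in 5 of the 6 fits with a library left out (the exception, without Gel/S 1, gave 2).

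Of 16 tested exchange factors, which load Rac or related GTPases with GTP, and their partners, 7 fell and none rose (median −0.26). The shares over all tested genes were 13.9% fallen and 13.1% risen. Arhgef7 fell from 20.9 ± 0.917 to 12.9 ± 0.382 FPKM (log2 fold change −0.65, edgeR adjusted p = 0.000442), Dock2, the main haematopoietic one, from 25.2 ± 3.31 to 16.8 ± 0.199 FPKM (log2 fold change −0.54, edgeR adjusted p = 0.00277), and Dock8 (−0.60), which like Dock11 of the same list is known to act on Cdc42, and Swap70 (−0.41) with them. Vav1, at 35.4 to 47.6 FPKM the most abundant of the list, was not called (log2 fold change −0.14, edgeR adjusted p = 0.268). With C/D 1 or C/D 2 left out 4 exchange factors fell, and with Gel/S 2 left out 12 fell.

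Of 11 tested GTPase-activating proteins, GDP dissociation inhibitors and related GTPases, 5 fell and none rose (median −0.26). Over all tested genes 13.9% fell and 13.1% rose. Arhgap25, which turns Rac off in phagocytes, fell from 37.6 ± 1.34 to 20.8 ± 1.98 FPKM (log2 fold change −0.81, edgeR adjusted p = 0.000233). Arhgdia, which holds Rac in the cytosol, fell from 283 ± 28.8 to 174 ± 2.64 FPKM (log2 fold change −0.66, edgeR adjusted p = 0.000831). Racgap1 (−0.28), Rhoa (−0.40) and Arhgdib (−0.31) passed with all libraries. Racgap1 and Rhoa lost the call when Gel/S 3 or a single C/D library was left out (highest edgeR adjusted p of 0.107 and 0.176), and Rhoa also without Gel/S 1. With Gel/S 3 or a single C/D library left out, the count of fallen genes in this list was 2.

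On the actin side of Rac, 6 of 13 tested effectors fell and 1 rose (median −0.25), against 13.9% and 13.1% of all tested genes. Actr3, a core subunit of the Arp2/3 complex, fell from 74.3 ± 7.47 to 42.7 ± 4.4 FPKM (log2 fold change −0.75, edgeR adjusted p = 0.000645). Cyfip1 (−0.60), a subunit of the WAVE complex that binds Rac, and the scaffold Iqgap1 (−0.67) fell, along with Pak2, which stands in the kinase list too. Baiap2, chosen after its value was seen as the only one to rise, had a log2 fold change of 0.43, and an effector rose in 1 of the 6 fits with a library left out, that without Gel/S 2. The count of fallen effectors was 3 without C/D 1.

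**Figure D5:**
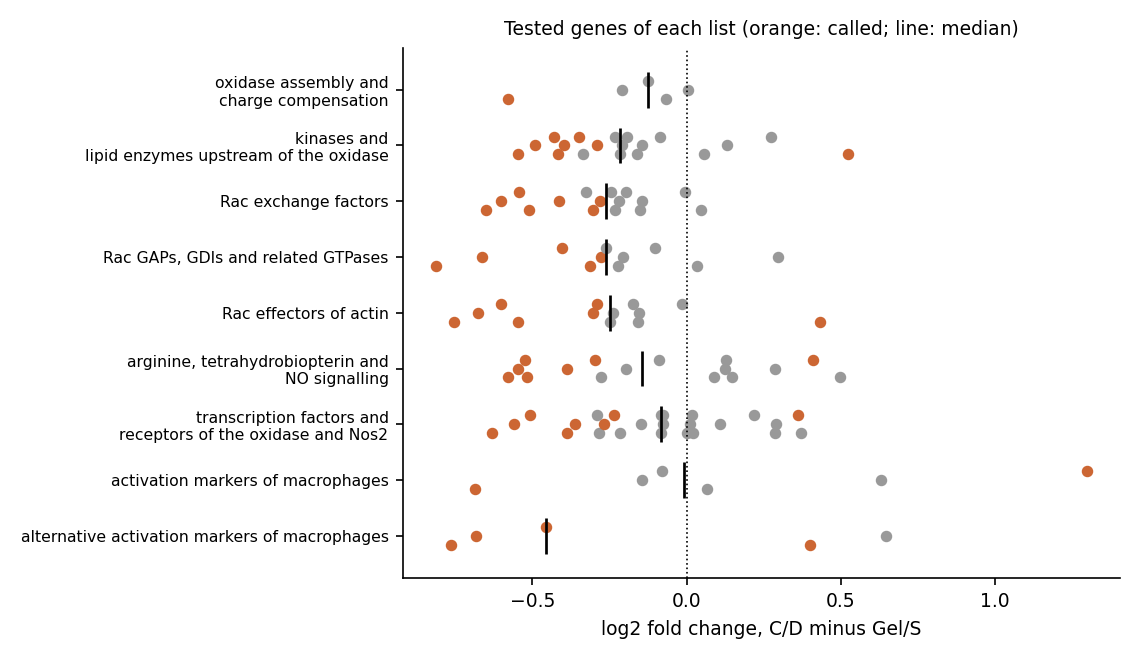
Log2 fold change, C/D against Gel/S, of every tested gene in 9 lists around the oxidase and Nos2, 1 point per gene (orange called at an edgeR adjusted p under 0.05, grey not called) with a black line at the list median. Medians run from −0.46 to −0.01, and the 4 lists of kinases and Rac regulators and effectors have medians of −0.22 to −0.26.

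Around Nos2, 16 of 24 genes for arginine supply, tetrahydrobiopterin and nitric oxide signalling were tested. Of these 6 fell, 1 rose and 9 were not called (median −0.14), while 13.9% of all tested genes fell and 13.1% rose. Enzymes of the cofactor moved in both directions. Gch1, the rate-limiting enzyme of tetrahydrobiopterin synthesis, was at 4.13, 4.92 and 4.48 FPKM in Gel/S and 3.89, 3.49 and 3.47 FPKM in C/D, lower in every C/D library but not called (log2 fold change −0.28, edgeR adjusted p = 0.0838), and it passed without Gel/S 1 (log2 fold change −0.35, edgeR adjusted p = 0.0303). Pts, the next enzyme, rose (0.41), while Spr, the last enzyme of synthesis, fell from 8.97 ± 1.54 to 6.06 ± 0.584 FPKM (log2 fold change −0.52, edgeR adjusted p = 0.0129). The recycling enzyme Qdpr fell as well (−0.39).

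The arginine genes were measured at very different levels. Slc7a1, the general arginine transporter, fell from 5.96 ± 1.49 to 3.96 ± 0.379 FPKM (log2 fold change −0.55, edgeR adjusted p = 0.0190), and Asl, which releases arginine from argininosuccinate, was at 10.4 ± 0.969 and 8.78 ± 1.07 FPKM (log2 fold change −0.20, edgeR adjusted p = 0.211). Slc7a2, an arginine transporter of activated macrophages, had a single count in Gel/S 1 and none elsewhere. Ass1, which rebuilds arginine from citrulline, was at or under 0.400 FPKM, and Arg1, the arginase that competes for the same substrate, at or under 0.614 FPKM. Arg2, the mitochondrial arginase, was at 1.05 ± 0.288 and 1.42 ± 0.318 FPKM (log2 fold change 0.50, edgeR adjusted p = 0.256). No guanylate cyclase gene of the list (Gucy1a1, Gucy1b1), the usual receptor for nitric oxide, had a count. Leaving out C/D 1 or C/D 2 gave 4 or 3 fallen genes of the list, Spr lost its call without C/D 2 (edgeR adjusted p = 0.0675), and no gene of the list rose once a C/D library was left out.

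Among 25 tested transcription factors and receptors known for the oxidase genes and Nos2, 7 fell, 1 rose and 17 were not called (median −0.08). The shares over all tested genes were 13.9% fallen, 13.1% risen and 27.0% called in either direction. Spi1, which encodes PU.1, a factor that drives Cybb in myeloid cells, was at 145, 192 and 166 FPKM in Gel/S and 138, 156 and 148 FPKM in C/D, with overlap and no call (log2 fold change −0.15, edgeR adjusted p = 0.353). Irf8, a partner of PU.1, fell from 23.4 ± 0.775 to 18.9 ± 0.839 FPKM (log2 fold change −0.27, edgeR adjusted p = 0.0287), a call lost when Gel/S 3 or a single C/D library was left out (highest edgeR adjusted p = 0.114). Irf1, which drives Nos2 after interferon, was at 7.41, 9.45 and 8.06 FPKM in Gel/S and 12.3, 9.88 and 9.13 FPKM in C/D and was not called (log2 fold change 0.37, edgeR adjusted p = 0.0566), although it passed without Gel/S 2 (log2 fold change 0.48, edgeR adjusted p = 0.0114). As for Nos2, its highest library was C/D 1.

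The NF-kB subunits Rela (−0.56) and Nfkb1 (−0.51), Hif1a (−0.63) and the interferon receptor chain Ifnar1 (−0.36) fell in C/D. Rela went from 22.8 ± 2.07 to 15.0 ± 0.196 FPKM (log2 fold change −0.56, edgeR adjusted p = 0.00143). For Ifnar1 the call was lost when C/D 2 (edgeR adjusted p = 0.0603) or C/D 3 (edgeR adjusted p = 0.0549) was left out. The count of fallen genes in the list of factors and receptors was 4 without Gel/S 3 or C/D 1 and 3 without C/D 2 or C/D 3, and the risen genes, 1 with all libraries (Tlr4, 0.36), were 4 without Gel/S 2 and 0 in 3 of the 6 fits (Gel/S 3, C/D 2 and C/D 3).

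Of the markers of macrophage activation that usually accompany Nos2 or Arg1, 7 of 14 and 6 of 12 were under 1 FPKM in every library, and others were abundant. Of the 14 activation markers 6 were tested, with 1 fallen, Tnf (278 ± 13.3 to 168 ± 7.69 FPKM, log2 fold change −0.68), and 1 risen, Ccl5 (log2 fold change 1.30), and a median of −0.01. Ccl5 kept its call only when Gel/S 2 or C/D 2 was the library left out (highest edgeR adjusted p otherwise 0.202), and like Nos2 it was highest in C/D 1, at 5.85 FPKM against 0.717 to 3.19 FPKM elsewhere. Of 12 markers of alternative activation 5 were tested, with a median of −0.46. The 3 fallen were Tgfb1 (65.6 to 46.4 FPKM, −0.46), Egr2 (27.4 to 15.6 FPKM, −0.76) and Myc (3.71 to 2.25 FPKM, −0.68). The 1 risen was Clec10a (0.40). For both marker lists, the shares over all tested genes were 13.9% fallen and 13.1% risen. Myc lost its call without C/D 3 (edgeR adjusted p = 0.0562), and Clec10a in 3 of the 6 such fits (Gel/S 3, C/D 1 and C/D 2, the last with the highest edgeR adjusted p, 0.114).

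Likeness was searched among tested genes without a predicted or clone name. The genes whose log2 CPM followed Cybb most closely over the 6 libraries were Mapkap1, Tpr and Naa15, each with a Pearson r of 0.999. They had log2 fold changes of −0.32, −0.31 and −0.43 and levels of 5.58 to 14.9 FPKM as group means. For Nos2 they were Bscl2, Gpr19 and Casp6, with r of 0.985, 0.983 and 0.982 and log2 fold changes of 0.14, 0.11 and 0.10, none of them called. The 6 points share library, depth and group, so these values describe likeness in these libraries only.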

How the data were processed

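Messenger RNA of RAW264.7 cells was sequenced in 6 libraries, 3 Gel/S and 3 C/D. Columns named GEL were read as Gel/S and those named US as C/D, since only C/D received ultrasound. This is not written in the labels, and all directions depend on it. Raw counts per gene were deposited by the authors. FPKM values, also the authors', divide these by listed gene length and a scaled library total, as the ratio of both columns shows. Log2 fold changes and p-values of the authors stand in the deposited table, with no test stated. The build is GRCm38 per the submitters' processing notes, and the aligner, counter and strand setting were not stated.

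Counts of 100 symbols with several entries were summed, 27 symbols turned into dates were restored from gene IDs, and 0 entries lacked a gene. The 11708 genes with a mean FPKM of at least 1 were tested with edgeR 4.0.16 (quasi-likelihood, TMM, Benjamini-Hochberg, threshold 0.05) in R 4.3.3. Standard errors were taken from the fold change and the F statistic. Gene structures are from GENCODE M21, whose spans match the table for all 7 members. On simulated counts for C/D against Gel/S over 11708 genes, 50 genes were changed at each size: 24% were called at 1.3-fold, 68% at 1.5-fold, 90% at 2-fold, and for 3-fold 96%, with 8 unchanged genes called. Only 200 genes were changed there, while 27.0% of tested genes were called in the data. The cut-off on p was therefore stricter in the simulation, and its shares do not carry over to the data. Alternatives used DESeq2 1.42.0 and limma 3.58.1. The members and the 9 lists were chosen with earlier results of these data known. Genes were named by rule: all members, up to 4 called genes per list with the smallest adjusted p, and a fixed set of related genes. The rule also took the 3 genes most correlated with Cybb and with Nos2, leaving out predicted and clone names. Other genes named (such as Prkcd, Vav1, Rac3, Pts, Prkca, Baiap2, Arhgdib, Slc7a1, Asl, Dock11 and Tlr4) and those overlapping members were chosen after their values were seen. A few genes covered by the naming rule are not reported here.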

Additional observations from a re-analysis of the deposited data

How the results depend on the processing

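Cybb and Rac1 were called as lower in C/D under all 18 alternatives, with log2 fold changes of −0.81 to −0.52 (highest adjusted p = 0.0287) and −0.56 to −0.38 (highest 0.0355). Of the members, 2 were called in every alternative except without C/D 2, which gave 3 by adding Nos2 (0.72, against 0.1351 without C/D 1). Leaving out single libraries gave 1804 to 4078 called genes among all tested (3163 with all libraries). Among the tested genes of the lists it gave 26 to 64 (47 with all libraries). The lists name 158 genes, and not all of these were tested. The Cyba to Cybb difference ranged from 0.57 to 0.99 and the Rac2 to Rac1 difference from 0.33 to 0.62 on the log2 scale. These ranges cover 7 alternatives, namely a single library left out or counts scaled by TMM. Library scaling cancels within a ratio, and the correction for gene length was not tried on the ratios. Signs of uncalled genes near 0 turned. Cyba was −0.0031 with limma on log2(TPM + 1) and −0.0622 after length correction. Rac2 was −0.0865 on TPM, −0.0082 without a filter on low values and −0.0581 without Gel/S 1 (0.1472 at most, without Gel/S 2). The TPM scaling moved the median of all tested genes to −0.12. The calls that rose were 633 of 2143 on TPM and 1020 of 2491 on FPKM, against 1532 of 3163. No list gene rose with limma on FPKM or TPM, against 6 here, and 4 exchange factors fell on TPM.

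Replicate numbers did not pair the libraries (correlations of same-numbered deviations of −0.057, −0.059 and 0.045). With the replicate number as a block, Cybb was −0.68 (adjusted p = 0.0134) and Rac1 −0.43 (0.0133), 2 members were called, 35 list genes and 2544 genes in all, and the lists of GTPase-activating proteins, dissociation inhibitors and related GTPases and of actin effectors had 3 and 4 fallen genes. Replicates differed by more than sampling noise. About 100 counts per library limit what can be said of Nos2. The causes of these changes were not tested.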
